A study of Mus musculus with 16 samples.

Results

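The genes examined here are 6 transcription regulators of the mouse oocyte, Nobox, Lhx8, Figla, Sohlh1, Sohlh2 and Taf4b, and their transcripts were followed across preimplantation development. The members are the array rows whose single annotated symbol is one of these names, which gave 6 rows (1 per gene) of 30638 rows for 30176 genes. Each value is the log2 signal of a Mouse Transcriptome Array, so that a difference of 1 stands for a doubling. Each of 8 stages (the metaphase II or MII oocyte, the 1-cell embryo, early and late 2-cell embryos, the 4-cell and the 8-cell embryo, the morula and lastly the blastocyst) was measured on 1 array per hormone background, 16 arrays in all, each with RNA of the equivalent of 20 oocytes or embryos. The superovulated background came from females given 10 IU PMSG and, 48 h later, 10 IU hCG, and the natural-cycle background from females without stimulation. All oocytes were of B6C3F1 females and all embryos of B6C3F1 females mated with CD1 males, taken at the pronuclear stage and grown in KSOM(aa) medium. Superovulated MII oocytes were from unmated females, whereas natural-cycle MII oocytes were from females mated with vasectomized males, so that mating and stimulation cannot be told apart at that stage. Lysates of several collections were pooled, and no stage has a replicate within a background.

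NOBOX (a homeodomain protein) and LHX8 (a LIM-homeodomain protein) are needed in the mouse ovary for primordial follicles to form and grow, as are the basic helix-loop-helix proteins FIGLA, SOHLH1 and SOHLH2. FIGLA activates the genes of the zona pellucida, the glycoprotein coat of the egg, and NOBOX activates oocyte growth factor genes such as Gdf9. Basic helix-loop-helix proteins bind E-boxes, usually together with a ubiquitous E protein. TAF4B is a gonad-enriched subunit of TFIID, the complex that brings RNA polymerase II to promoters. A fully grown oocyte transcribes little, and the embryo starts its own transcription mainly at the 2-cell stage, while stored maternal transcripts are degraded.

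The RefSeq windows upstream of the annotated start sites (GRCm38.p6) were read for 5 of the 6 genes, over the 250 bases before the start. Those of Nobox, Sohlh1 and Lhx8 are printed because they span the range of E-box content among the members, on the strand of the gene, 5′ to 3′, with each E-box (CANNTG, which reads as an E-box on both strands) in capitals.
Nobox, chr6:43309555-43309804, minus strand: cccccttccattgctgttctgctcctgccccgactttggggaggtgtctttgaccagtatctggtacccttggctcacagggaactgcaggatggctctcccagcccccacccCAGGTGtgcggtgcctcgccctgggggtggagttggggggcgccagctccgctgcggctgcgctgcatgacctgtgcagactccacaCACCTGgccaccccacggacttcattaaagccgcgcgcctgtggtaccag
Sohlh1, chr2:25847249-25847498, minus strand: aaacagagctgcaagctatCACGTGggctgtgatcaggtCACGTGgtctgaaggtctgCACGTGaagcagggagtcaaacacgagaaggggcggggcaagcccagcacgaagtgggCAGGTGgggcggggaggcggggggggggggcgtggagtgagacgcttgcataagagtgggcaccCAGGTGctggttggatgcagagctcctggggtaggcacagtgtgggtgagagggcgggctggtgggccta
Lhx8, chr3:154330561-154330810, minus strand: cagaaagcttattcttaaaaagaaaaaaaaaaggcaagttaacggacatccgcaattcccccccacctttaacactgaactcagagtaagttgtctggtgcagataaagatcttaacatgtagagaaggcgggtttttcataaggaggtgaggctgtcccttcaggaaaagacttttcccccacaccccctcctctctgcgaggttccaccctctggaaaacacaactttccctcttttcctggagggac
The Sohlh1 window held 5 E-boxes, of which 3 were the form CACGTG. The Nobox and Figla windows held 2 each, the Sohlh2 window 1 and the Lhx8 window 0. Over all 32851 windows of this length, 66.2% held at least 1 CANNTG, 31.8% at least 2 and 12.2% at least 3. For CACGTG, 6.02% of all windows held it and 0.0609% held it at least 3 times. The homeodomain cores TAATTA (in 4.84% of all windows) and TAATTG (7.17%), read on both strands, were in none of the 5 windows. These matches are letters in a window and were not set against any binding measurement.

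The arrays of one stage resembled each other closely, with correlations across all tested rows between the backgrounds of 0.983 to 0.992 over the 8 stages. A level for transcripts taken as absent was set on each array as the 95th percentile of 52 genes of other tissues, and it lay between 5.09 and 5.84. The oocyte origin showed on every array, with 26 to 31 of 31 maternal oocyte genes above that level on superovulated arrays and 23 to 31 on natural-cycle arrays. Markers of cumulus and granulosa cells, which surround the ovulated oocyte, stood above the level for 8 of 17 genes at the MII stage after superovulation and for 6 of 17 in the natural cycle, and their log2 signals summed to 82.3 to 109.4 over the superovulated arrays and to 80.9 to 93.6 over the natural-cycle arrays. From MII oocyte to 1-cell, 3 of the 17 were called lower and 0 higher (0.215% and 0.0196% of all rows). Inha, an inhibin subunit gene, averaged 10.03 in MII oocytes and fell by 5.08 ± 0.77 to the 1-cell stage (adjusted p = 0.0255). Ptgs2 averaged 8.41 and fell by 3.20 ± 0.37 (adjusted p = 0.00745), and Vcan averaged 5.83 and fell by 1.85 ± 0.15 (adjusted p = 0.00153). Tnfaip6 and Cyp11a1 averaged 8.49 and 7.58 in MII oocytes and 5.82 and 5.44 at 1-cell. Other genes of the list were brighter later: Amhr2 averaged 5.14 in MII oocytes and 11.86 at 4-cell. Nr5a2 and Hsd17b1 averaged 9.58 and 6.4 in MII oocytes and 12.39 and 6.71 in morulae. From MII oocyte to blastocyst, 8 of the 17 were called lower and 2 higher (20.1% and 24.5% of all rows). By contrast, Foxl2, Amh and Fshr, which define granulosa cells, were above the level on 0 of 16 arrays. The part that such cells had in the member values was not tested.

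By their levels, the members fell into genes with abundant signal and genes near the absent level. Lhx8 and Taf4b were above it on 16 of 16 arrays, Nobox on 14, Sohlh2 on 11, Sohlh1 on 2 and Figla on 0. Of the 52 genes, Actn3 and Vil1 were themselves bright on some arrays (up to 10.86 and 10.0). With both removed, a choice made after their values were seen, Sohlh1 was above the level on 8 arrays, Nobox on 15, Sohlh2 on 12, and Figla, Lhx8 and Taf4b were as before.

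**Figure D1:**
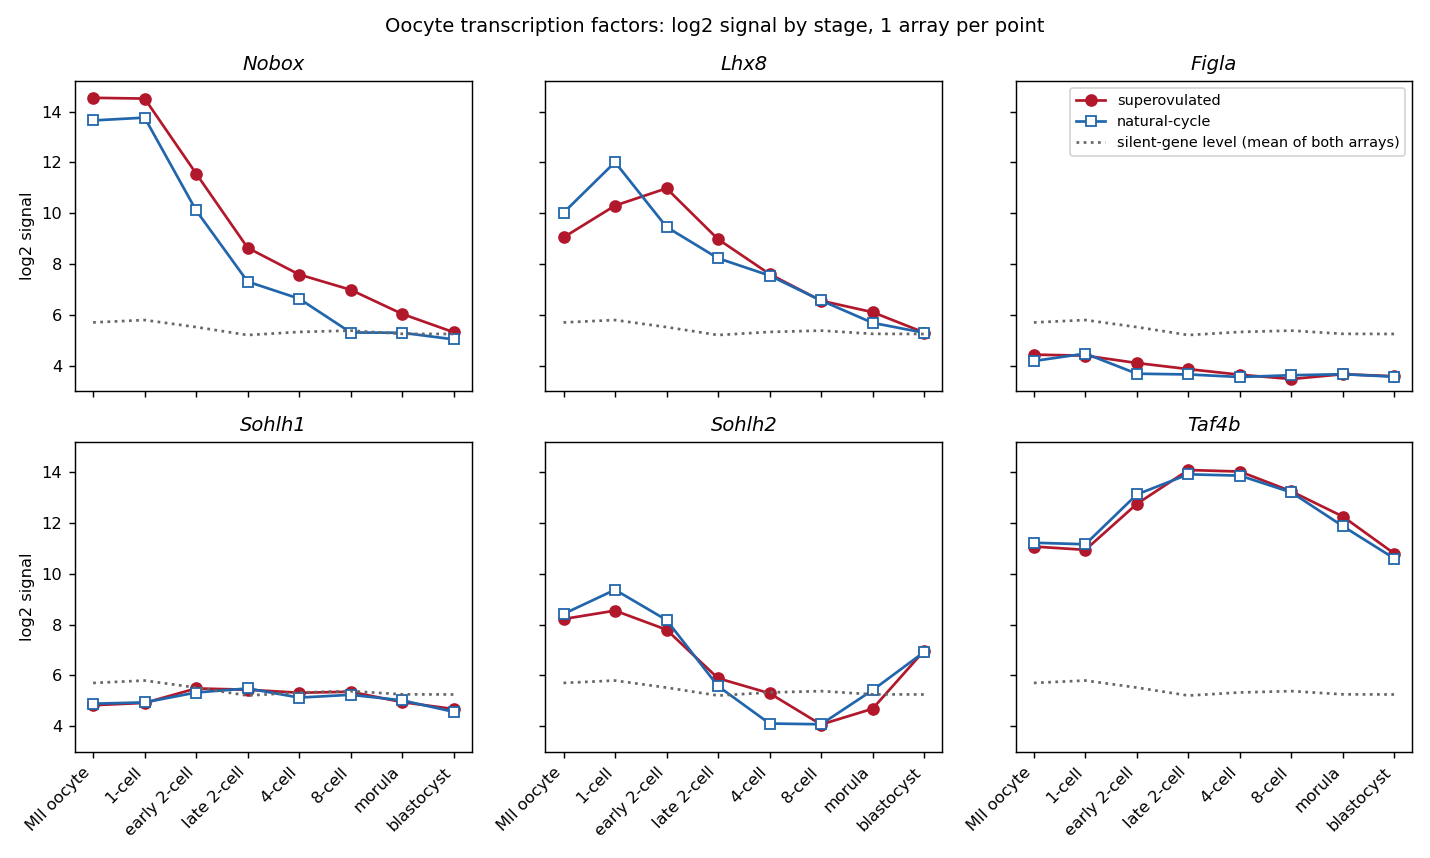
Log2 signal (vertical axis) of each gene at 8 stages (horizontal axis), 1 array per point, superovulated in filled red circles and natural-cycle in open blue squares, with the level of silent genes dotted. Nobox descends after the 1-cell stage, Taf4b peaks at the late 2-cell stage in both backgrounds, Sohlh2 is lowest at the 8-cell stage, and Figla stays under the dotted line on all 16 arrays.

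Nobox transcript was abundant in the egg and lost across the first cleavages. In superovulated material its log2 signal was 14.54 in MII oocytes, 14.51 at 1-cell, 11.56 at early 2-cell, 8.64 at late 2-cell, 7.59 at 4-cell, 6.99 at 8-cell, 6.04 in morulae and 5.32 in blastocysts. In natural-cycle material it was 13.65, 13.76, 10.11, 7.31, 6.64, 5.31, 5.30 and 5.04 at the same stages. The order of stages was almost that of development in both backgrounds, with a plateau over fertilization and an end at or near the level of absent genes. From the MII oocyte to the blastocyst it fell by 8.91 ± 0.33 (SE) on the log2 scale (limma, adjusted p = 2.58e-09). Since 1 of the 2 blastocyst arrays was above the level of absent genes, the fold is a bound, at least 446-fold with the other array set at that level. It fell by 3.30 ± 0.33 into the early 2-cell stage (adjusted p = 2.34e-05) and fell by 2.86 ± 0.33 between the early and the late 2-cell stage (adjusted p = 0.00021). The MII oocyte and the 1-cell embryo differed by 0.04 ± 0.33, and none of the 4 steps from late 2-cell to blastocyst passed the test singly, though over these stages together the signal fell by 2.79 ± 0.33 (adjusted p = 3.52e-05). On the log2 scale, 68.7% of the whole fall had taken place at the late 2-cell stage, 64.0% in superovulated and 73.6% in natural-cycle embryos. At the early 2-cell stage that share was 36.6% ± 6.3 (SD over the 2 backgrounds). These are shares of a log2 difference, and by late 2-cell the signal was already 69.5-fold lower than in the MII oocyte. They also take as their end blastocyst values at or near the level of absent genes.

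Lhx8 was also a transcript of the egg, but its early stages differed between the backgrounds. From 1-cell to early 2-cell it changed by 0.68 in superovulated and by -2.55 in natural-cycle embryos. In superovulated material the log2 signal was 9.05 in MII oocytes, 10.30 at 1-cell, 10.98 at early 2-cell, 8.98 at late 2-cell, 7.61 at 4-cell, 6.56 at 8-cell, 6.11 in morulae and 5.31 in blastocysts. In natural-cycle material it was 10.02, 12.01, 9.46, 8.23, 7.55, 6.57, 5.69 and 5.30. The highest value thus fell at early 2-cell after superovulation and at 1-cell in the natural cycle, and from the 4-cell stage on the backgrounds were within 0.43 of each other. The fall from the MII oocyte to the blastocyst was 4.24 ± 0.58, 18.8-fold (adjusted p = 7.38e-05), and from late 2-cell to blastocyst the signal fell by 3.30 ± 0.58 (adjusted p = 0.000739). Both falls end barely above the level of absent genes, which was 5.233 on the superovulated and 5.271 on the natural-cycle blastocyst array. The 18.8-fold is therefore read as a lower bound. The rise of the mean from MII oocyte to 1-cell, 1.62 ± 0.58, did not pass the test (adjusted p = 0.572), and no other single step did either. Between 1-cell and early 2-cell the change was -0.94 ± 0.58 (adjusted p = 0.324). It was -1.92, a larger fall, without the superovulated 1-cell array, a fit that leaves 1 array at 1-cell, so that only its size is given. With arrays centred on housekeeping genes it was -2.00 and called (adjusted p = 0.000453), a scaling that moved the median of all rows by -1.062 there. The step from early to late 2-cell, -1.61 ± 0.58 (adjusted p = 0.0789), was called under 6 of the alternatives: with arrays centred on brighter rows (adjusted p = 0.0395), with housekeeping centring (0.00213), over rows above the median level (0.0375), and without either 1-cell array or the natural-cycle early 2-cell array (0.0244 to 0.0313). At late 2-cell the share of the log2 fall reached was 22.0% (SD 25.4), being 2.0% in superovulated and 37.9% in natural-cycle embryos. This share is counted from the MII oocyte, which was dimmer than the 1-cell embryo in both backgrounds.

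Figla, the activator of the zona genes, read as low on every array. Its log2 signal was 4.44, 4.40, 4.11, 3.87, 3.65, 3.48, 3.67 and 3.59 from MII oocyte to blastocyst in superovulated material, and 4.19, 4.48, 3.69, 3.66, 3.56, 3.63, 3.67 and 3.57 in natural-cycle material. The MII and 1-cell arrays were the 4 highest, and each of the 16 values was under the level of absent genes, so that the changes that follow are differences between low signals. The signal fell by 0.54 ± 0.14 from 1-cell to early 2-cell (adjusted p = 0.0163) and by 0.73 ± 0.14 from MII oocyte to blastocyst (adjusted p = 0.000943). The first of these calls was lost without the natural-cycle 1-cell array or without the natural-cycle early 2-cell array, where the highest adjusted p over all alternatives was 0.21.

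Sohlh1, which acts in germ cells before and during follicle assembly, had a low and nearly flat signal. Superovulated arrays read 4.83, 4.92, 5.49, 5.44, 5.32, 5.36, 4.95 and 4.68 from MII oocyte to blastocyst, and natural-cycle arrays 4.89, 4.94, 5.33, 5.49, 5.13, 5.24, 5.02 and 4.57. Only the 2 late 2-cell arrays exceeded the level of absent genes. The early and late 2-cell arrays were higher than the MII, 1-cell and blastocyst arrays in both backgrounds. The increase from 1-cell to early 2-cell was 0.48 ± 0.14 (adjusted p = 0.0243), a call lost without any 1 of the 4 arrays of these stages, and with arrays centred on housekeeping genes it turned to -0.57 (adjusted p = 0.0849), a scaling that moved the median of all rows by -1.062 at this step. From MII oocyte to late 2-cell the increase was 0.61 ± 0.14 (adjusted p = 0.00381), but it was 0.37 and not called with arrays centred on brighter rows (adjusted p = 0.162), and -0.68 and called as a fall with housekeeping centring (adjusted p = 0.0396). From late 2-cell to blastocyst the signal fell by 0.84 ± 0.14 (adjusted p = 0.000427) and did so under all 25 alternatives.

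Sohlh2, the partner of SOHLH1, had a trough and a return. Its log2 signal in superovulated material was 8.22 in MII oocytes, 8.55 at 1-cell, 7.80 at early 2-cell, 5.89 at late 2-cell, 5.30 at 4-cell, 4.07 at 8-cell, 4.69 in morulae and 6.97 in blastocysts. In natural-cycle material it was 8.42, 9.37, 8.18, 5.58, 4.11, 4.08, 5.42 and 6.92. Both 4-cell and both 8-cell arrays were under the level of absent genes, whereas both blastocyst arrays were above it and within 0.05 of each other. The signal fell by 2.25 ± 0.39 from early to late 2-cell (adjusted p = 0.00188) and rose by 1.89 ± 0.39 from morula to blastocyst (adjusted p = 0.00749), which is at least 2.96-fold, since 1 of the 2 morula arrays was above the level of absent genes and the other was set at it. This rise was no longer called without the superovulated morula, without the natural-cycle blastocyst or with array weights, the highest adjusted p being 0.0974, with changes of 1.51 to 2.27 over all alternatives. The blastocyst nonetheless remained below the MII oocyte, by -1.38 ± 0.39 (adjusted p = 0.0113), a call lost without the natural-cycle MII oocyte or blastocyst array (highest adjusted p = 0.0688).

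Taf4b was highest in the cleaving embryo. In superovulated material its log2 signal was 11.07 in MII oocytes, 10.94 at 1-cell, 12.75 at early 2-cell, 14.08 at late 2-cell, 14.02 at 4-cell, 13.24 at 8-cell, 12.25 in morulae and 10.79 in blastocysts. In natural-cycle material it was 11.22, 11.16, 13.12, 13.91, 13.86, 13.20, 11.87 and 10.60. All 10 arrays from early 2-cell to morula were higher than all 6 of MII oocytes, 1-cell embryos and blastocysts. The signal rose by 1.89 ± 0.25, 3.71-fold, from 1-cell to early 2-cell (adjusted p = 0.000241) and by 1.06 ± 0.25 from early to late 2-cell (adjusted p = 0.0125), giving 2.85 ± 0.25, 7.19-fold, from MII oocyte to late 2-cell (adjusted p = 4.32e-06). The step within the 2-cell stage was not called with cyclic loess scaling (0.45) or housekeeping centring (0.76), nor without the superovulated early, the superovulated late or the natural-cycle late 2-cell array. The late 2-cell and 4-cell stages differed by -0.06 ± 0.25. The signal then fell by 1.17 ± 0.25 into the morula (adjusted p = 0.044), a call lost in 13 of the 16 fits that each left out 1 array, with an adjusted p of up to 0.244. It fell by 1.36 ± 0.25 from morula to blastocyst (adjusted p = 0.00462, and 0.0545 without the superovulated morula). From late 2-cell to blastocyst it fell by 3.30 ± 0.25 (adjusted p = 1.66e-06), which left the blastocyst -0.45 ± 0.25 from the MII oocyte (adjusted p = 0.183). This last difference was -1.13 and called with cyclic loess scaling (adjusted p = 0.00223), and -2.75 and called with housekeeping centring (adjusted p = 1.24e-08).

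**Figure D2:**
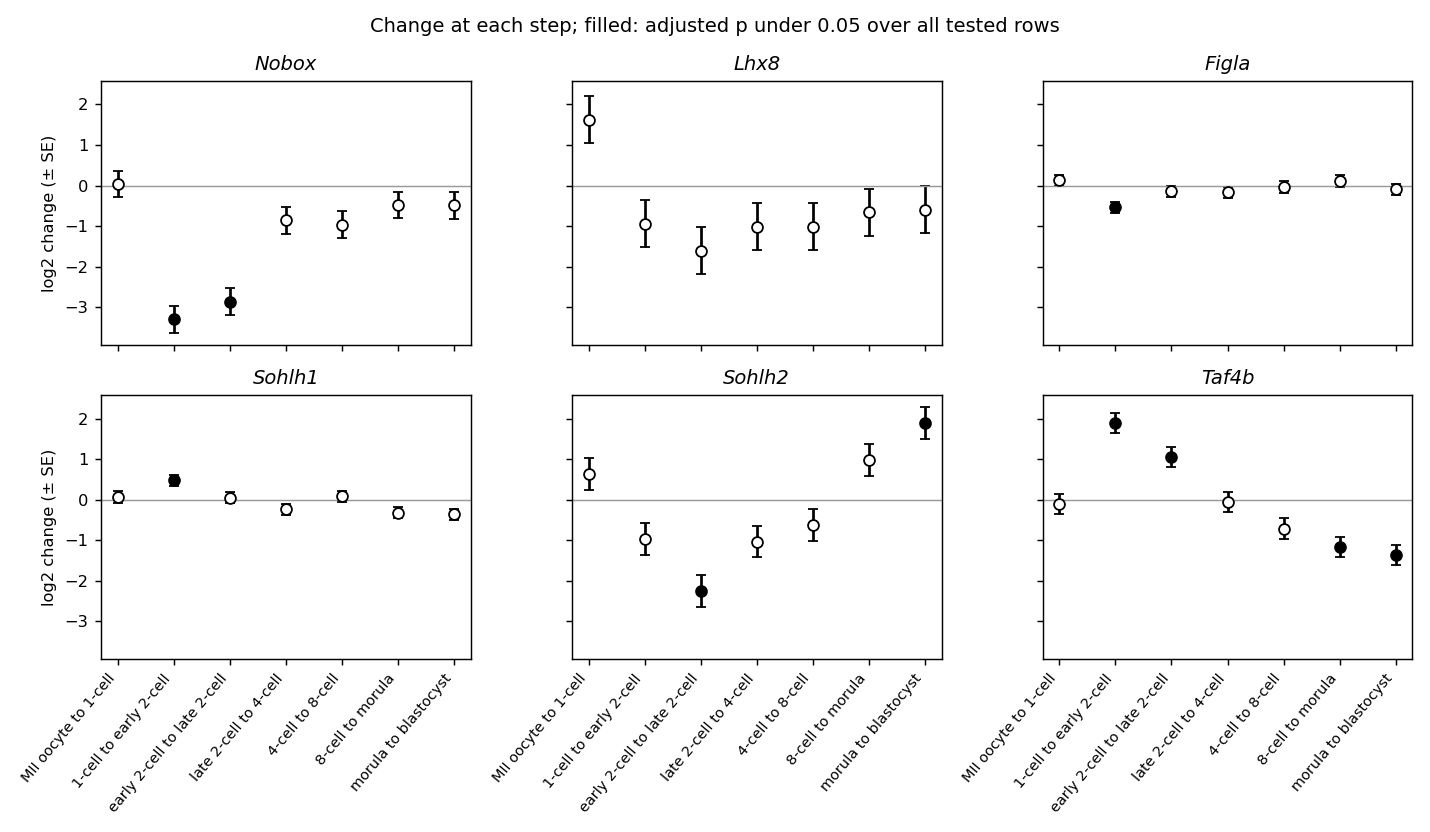
Log2 change at each of 7 consecutive steps (mean ± SE from the fit over 16 arrays), filled where the adjusted p over 30638 rows was under 0.05. Nobox changes by -3.30 and -2.86 at the steps into and through the 2-cell stage while Taf4b rises by 1.89 and 1.06, and Sohlh1 rises by 0.48 at the first of them, an increase that turns to -0.57 when arrays are centred on housekeeping genes.

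Counted over the 6 genes, the called changes gathered around the 2-cell stage, as they did over the whole array. From MII oocyte to 1-cell 0 of 6 were called, where 0.235% of all rows were, and 1 of the 6 (Lhx8) had an unadjusted p under 0.05. From 1-cell to early 2-cell 4 were called (2 higher and 2 lower, against 21.5% of all rows). Of these, Figla and Sohlh1 were under the level of absent genes on every array of both stages. From early to late 2-cell 3 were called (1 higher and 2 lower, against 19.0% of all rows). From late 2-cell to 4-cell, and from 4-cell to 8-cell, 0 were called, against 2.07% and 6.96% of all rows, with Nobox and Sohlh2 at an unadjusted p under 0.05 in the first and Nobox and Taf4b in the second. From 8-cell to morula 1 was called (1.82% of all rows), and from morula to blastocyst 2, in opposite directions (12.1%). Over the longer spans, 5 of 6 were called between MII oocyte and late 2-cell (36.1% of all rows), 5 between late 2-cell and blastocyst (36.9%), and 4, all lower in the blastocyst, between MII oocyte and blastocyst (44.5%). Figla, under the level of absent genes on all 16 arrays, was among the calls of the first and the last of these spans. Counted by direction, 20.1% of all rows were called lower in the blastocyst than in the MII oocyte. The median MII-to-blastocyst change was -1.06 over the members and 0.01 over all rows.

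Nobox was higher after superovulation at 8 of 8 stages. The superovulated value exceeded the natural-cycle value by 0.88 in MII oocytes, 0.75 at 1-cell, 1.45 at early 2-cell, 1.32 at late 2-cell, 0.96 at 4-cell, 1.69 at 8-cell, 0.73 in morulae and 0.28 in blastocysts. The mean difference was 1.01 ± 0.16 (SE), 2.01-fold (limma, adjusted p = 0.0439), and an exact two-sided sign-flip permutation test over the 8 stages gave p = 0.00781 unadjusted, the smallest it can give. Both tests take the 8 stage differences as separate replicates of stimulation, and whether the stages are independent was not tested. Nobox was the only called member, in a comparison that called 0.339% of all rows, 63 higher and 41 lower after superovulation. The call sat near the threshold: it was lost in 14 of the 16 fits that each left out 1 array, all but those without a blastocyst array, and the difference stayed between 0.91 and 1.12 over all alternatives, with adjusted p of up to 0.147. Maternal genes as a list were also more often higher than lower after superovulation, 17 to 26 of 31 at each stage with median differences of 0.05 to 0.35, where over all rows 49.1% to 60.5% were higher at each stage. Among them Zar1l, an oocyte RNA-binding protein gene, was the 1 called (1.24 ± 0.16, adjusted p = 0.0406). Cumulus and granulosa markers leaned the same way, with 16 of 17 higher in superovulated MII oocytes, 16 of 17 in morulae and 10 to 13 at the other stages. Genes of 2-cell activation did not lean in MII oocytes or at 1-cell, with 8 of 16 higher at each. Of these genes 15 of 16 were higher at late 2-cell and at 4-cell, and 10 to 13 at the other stages. The part of these lists in the Nobox difference was not tested.

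The other members gave no call for superovulation. Differences averaged 0.10 ± 0.07 for Figla, 0.01 ± 0.29 for Lhx8, 0.05 ± 0.07 for Sohlh1, -0.08 ± 0.19 for Sohlh2 and 0.02 ± 0.13 for Taf4b. Lhx8 combined a mean near 0 with the widest spread of the 6, from -1.71 at 1-cell to 1.52 at early 2-cell. Whether the difference changed between the stages up to early 2-cell and those after it was tested as an interaction, and 0.00% of all rows and 0 of 6 members were called (1905 rows had an unadjusted p under 0.05). The early minus late value was 0.03 ± 0.35 for Nobox and -0.63 ± 0.60 for Lhx8, whose lowest and highest differences both fall in the early period.

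**Figure D3:**
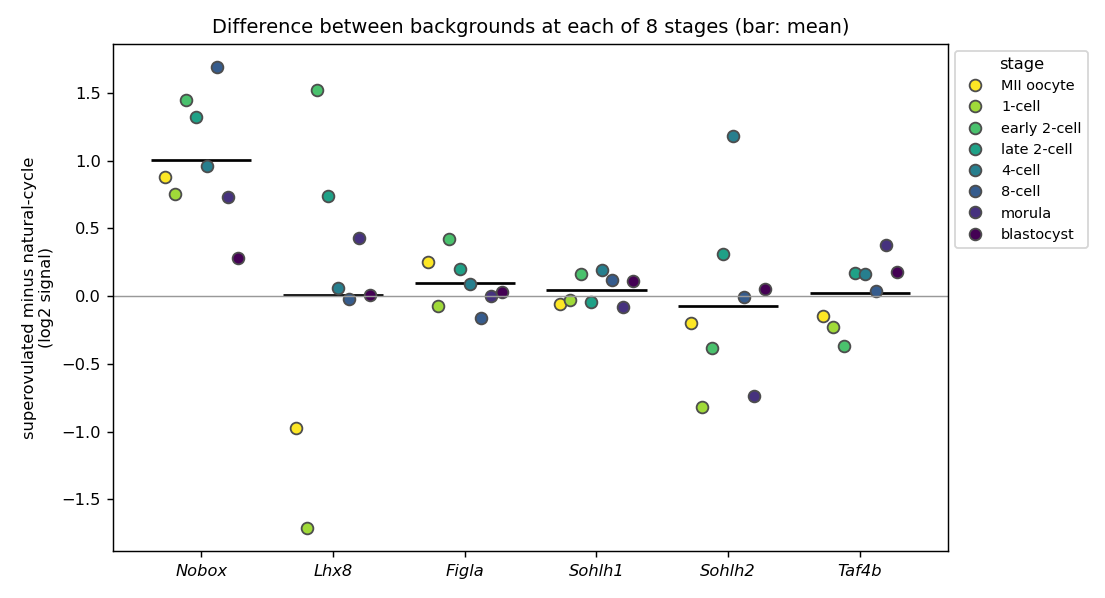
Superovulated minus natural-cycle log2 signal of each gene, 1 point per stage coloured from MII oocyte (light) to blastocyst (dark), with the mean as a bar. All 8 Nobox points lie above 0, between 0.28 and 1.69, while those of the other 5 genes lie on both sides of 0.

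Most genes that depend on NOBOX in the mouse ovary were, like Nobox itself, lower in the blastocyst than in the egg. Of 13 tested, 12 were lower and 1 higher in the blastocyst than in the MII oocyte (median -9.77), against 9 lower and 0 higher at the 1-cell to early 2-cell step and again 9 and 0 at the early to late 2-cell step. Over all rows 20.1%, 10.1% and 8.56% were called lower in these comparisons. Maternal oocyte genes, a list that shares genes with this one, did likewise. Of those 31, 29 were lower and 2 higher in the blastocyst than in the MII oocyte (median -9.17). At the 2 steps, 17 and 15 of the 31 were lower, and 0 and 1 higher. Bmp15, an oocyte growth factor, fell by 11.93 ± 0.34 to the blastocyst (adjusted p = 4.39e-10), Rfpl4 fell by 11.39 ± 0.48 (adjusted p = 6.84e-09), and Oosp1, an oocyte-secreted protein gene, fell by 10.49 ± 0.45 (adjusted p = 7.39e-09). The timing varied widely: of the 12 genes that fell, the share of the log2 fall reached at late 2-cell ran from 1.0% for Oosp1 to 83.5% for Dnmt1, with a median of 49.0%, and was 25.0% for Rfpl4 and 75.7% for Mos. It was above the Nobox share of 68.7% for 3 genes and below it for 9. Mos, the kinase that holds the egg in metaphase, was the 1 gene of the list called from MII oocyte to 1-cell, where it fell by 3.34 ± 0.54 (adjusted p = 0.0342). The exception was the pluripotency gene Pou5f1, which between the 4-cell and the 8-cell embryo rose by 2.17 ± 0.32 (adjusted p = 0.00337), and which stood 1.86 ± 0.32 higher in the blastocyst than in the MII oocyte (adjusted p = 0.000437). For superovulation, 0 of these 13 were called in the limma fit, and 8 to 11 of them were higher after superovulation at each stage, among them 8 of 13 (61.5%) in morulae, close to the 60.3% of all rows there.

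Targets of FIGLA were abundant in the egg, where the Figla signal was under the level of absent genes. How well the array row of Figla responds to Figla RNA was not tested, so the low signal does not show that the RNA was absent. The zona genes Zp1, Zp2 and Zp3 averaged log2 signals of 16.07, 16.53 and 15.62 in MII oocytes, and all 3 fell to the blastocyst, with changes of -10.82 ± 0.27, -9.91 ± 0.27 and -9.17 ± 0.33 in that order. All 3 were lower at early 2-cell than at 1-cell (-2.34, -1.72 and -2.21), after which Zp3 rose by 1.18 ± 0.33 to late 2-cell (adjusted p = 0.0262) while Zp2 fell by 0.89 ± 0.27 (adjusted p = 0.0397). Of 6 other FIGLA-dependent genes, 6 fell between MII oocyte and blastocyst (median -9.15), among them Oas1d (-9.92 ± 0.25), Padi6 (-9.77 ± 0.32) and Nlrp14 (-9.54 ± 0.45). Over the same span 29 of 31 maternal oocyte genes fell (median -9.17), and 20.1% of all rows were called lower. Padi6, a component of the egg's cytoplasmic lattices, is on the NOBOX list as well.

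**Figure D4:**
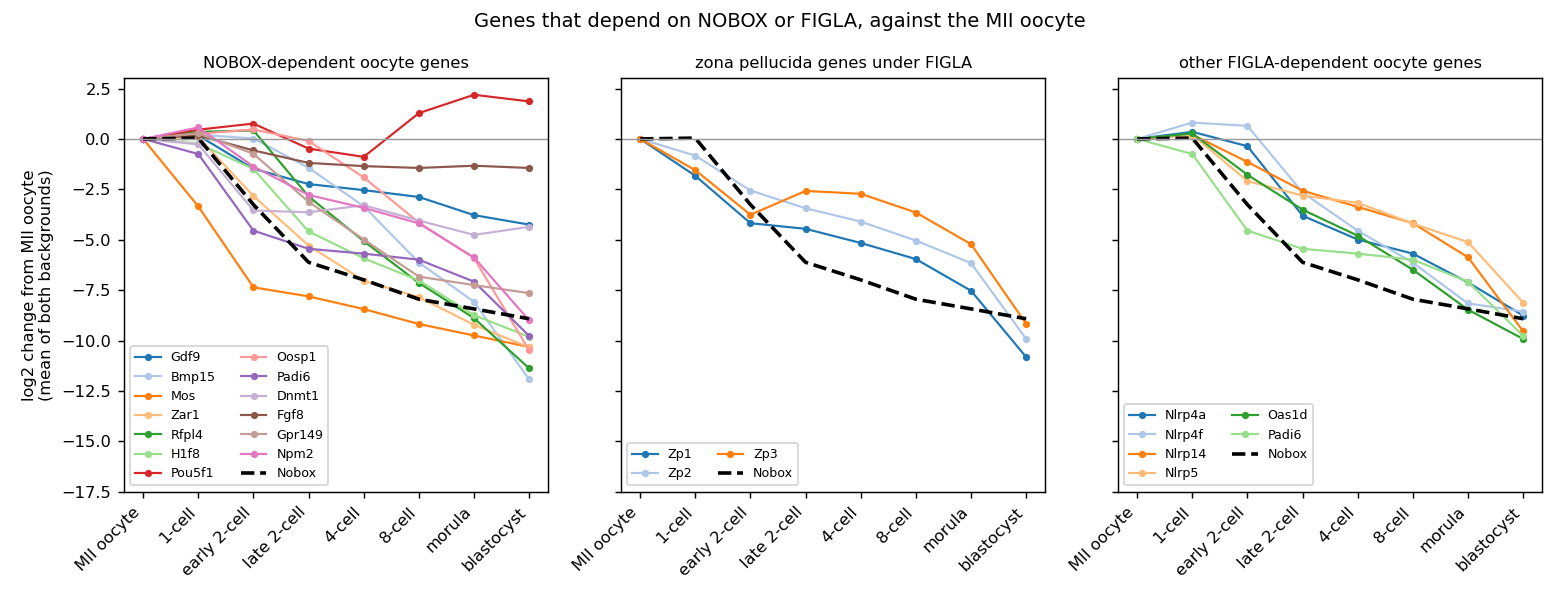
Log2 change from the MII oocyte (mean of both backgrounds) at each stage for 13 NOBOX-dependent genes, 3 zona genes and 6 other FIGLA-dependent genes, with Nobox dashed in black. All but Pou5f1 and Fgf8 end 4 or more below 0, Pou5f1 ends 1.86 above it, and Zp3 climbs by 1.18 between early and late 2-cell.

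The proteins with which the members work were less uniform. Of 7 genes of E proteins and their Id inhibitors, 3 rose from 1-cell to early 2-cell (11.4% of all rows did), all of them Id genes: Id1 by 2.43 ± 0.23 (adjusted p = 1.51e-05), Id2 by 2.29 ± 0.55 (adjusted p = 0.0109) and Id4 by 0.41 ± 0.11 (adjusted p = 0.02), the last above the absent level on 0 arrays. Id2 rose again by 5.53 ± 0.55 from morula to blastocyst (adjusted p = 0.00011), and the E protein genes Tcf12, Tcf4 and Tcf3 were lower in blastocysts than in MII oocytes by -0.88, -0.81 and -0.59. Of 9 genes of LIM-homeodomain cofactors, 4 were lower and 1 higher in the blastocyst than in the MII oocyte, where 44.5% of all rows were called in either direction. Lmo1, which encodes a LIM-only protein, first rose by 1.13 ± 0.35 into the early 2-cell stage (adjusted p = 0.0381) and ended lower by -6.43 ± 0.35 (adjusted p = 4.46e-08). Ldb1, the LIM-binding adaptor, fell by 1.97 ± 0.30 to late 2-cell and rose by 2.19 ± 0.30 from there to the blastocyst.

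Taf4b was set beside 17 genes of TFIID subunits and TBP relatives. From 1-cell to early 2-cell 4 of them rose and 1 fell, in a step that called 21.5% of all rows. Taf2 rose by 1.49 ± 0.25 (adjusted p = 0.00117), Taf11 by 1.23 ± 0.34 (adjusted p = 0.0232) and Tbpl1 by 1.05 ± 0.28 (adjusted p = 0.0198), whereas Taf8 fell by 1.85 ± 0.26 (adjusted p = 0.000351) and regained 2.00 ± 0.26 by late 2-cell. From late 2-cell to blastocyst 9 of the 17 fell and 0 rose (17.8% of all rows were called lower). Taf9b had the largest called fall of the list from MII oocyte to blastocyst, -6.92 ± 0.37 (adjusted p = 3.89e-08). Of 11 other regulators of primordial follicle oocytes, such as the RNA-binding protein gene Dazl and the receptor gene Kit, 8 were lower in the blastocyst than in the MII oocyte and 0 higher (20.1% and 24.5% of all rows).

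Among the members themselves, over 16 arrays, Nobox correlated with Figla (Pearson's r = 0.93), Lhx8 (0.89) and Sohlh2 (0.80), and Sohlh1 with Taf4b (0.88), while Taf4b and Sohlh2 ran in opposite directions (-0.63). The arrays share 8 stages and 2 backgrounds, so these values describe a common course over development. Figla was above the level of absent genes on 0 of 16 arrays and Sohlh1 on 2. Their correlations, and the genes named below as closest to them, therefore rest on differences between low signals. Among 11660 rows compared, the courses most like Nobox were those of Ninj2 (r = 0.998), Rgs2 (0.995) and Tmem255b (0.995). Those most like Lhx8 were Clip4 (0.982), Pclo (0.98) and Erich5 (0.98), and those most like Sohlh2 were Hscb (0.979), Dis3l2 (0.978) and Mospd2 (0.975). Noa1 (0.984), Polr3k (0.979) and Polh (0.978) were closest to Taf4b, Cd180, Krt73 and Zfp521 to Figla (0.963 to 0.97), and Zbtb41, Cdk8 and AF067063 to Sohlh1 (0.933 to 0.961). The names depended on the measure, since 4 of these 18 were named again with Spearman's rho and 4 with the 8 stage means.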

How the data were processed

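Total RNA of pooled oocytes or embryos was labelled with the WT Pico kit and hybridised to 16 arrays. The deposited values are log2 signals per transcript cluster that the authors computed with Affymetrix Expression Console, per the labels. The study's methods name the Signal Space Transformation variant of robust multiarray averaging for its blastomere and blastocyst arrays, and whether it was also used for these 16 arrays is not given in the sources used here, nor is the genome build. The precision is limited by the number of arrays.

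Of 72688 rows, 30638 with exactly 1 symbol were tested (186 control rows, 2176 with several symbols and 39688 with none were left out). Symbols came from the platform annotation, and 29849 of 30176 genes had a RefSeq name. The fit was limma 3.58.1 in R 4.3.3 with a term for each stage and 1 for stimulation, moderated with a mean-variance trend (7 residual and 4.52 prior degrees of freedom), Benjamini-Hochberg adjustment over all tested rows and a threshold of 0.05. With 1 array per stage and background, the error is the departure of the 2 backgrounds from a common course, which may be technical as well as biological. The interaction fit added stimulation by period. The fit was tested on simulated data. All 6 members are named in every comparison, and from other lists up to 3 called genes per direction. The members and lists were chosen with earlier results of these data known. Alternatives were other moderations, scalings, filters and weights, and each array left out.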

Additional observations from a re-analysis of the deposited data

Results flagged for a closer look

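Lhx8 moved in opposite directions in the 2 backgrounds at the step from 1-cell to early 2-cell, by 0.68 in superovulated and by -2.55 in natural-cycle embryos on the log2 scale. It drew attention because each background moved by at least 0.5, against the other. With 1 array per stage and background the difference at this step was not tested. In the test of early against late stages over all 16 arrays, the Lhx8 difference was -0.63 ± 0.60 (limma, adjusted p = 0.889), and -1.80 (adjusted p = 0.532) with MII oocyte and 1-cell set against all later stages. The first of these places 1-cell and early 2-cell in the same period. Their superovulated minus natural-cycle differences of -1.71 and 1.52 offset each other there, so it could not detect the opposite movement.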

How the results depend on the processing

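Of 25 changes of members called in the fit, 14 were called in every alternative, among them all 5 stage changes of Nobox and both of Lhx8. Over single-array omissions, the members called numbered 2 to 5 from 1-cell to early 2-cell, 2 to 4 from early to late 2-cell, 0 to 1 from 8-cell to morula, 0 to 2 from morula to blastocyst, 4 to 5 from MII oocyte to late 2-cell and from late 2-cell to blastocyst, 3 to 4 from MII oocyte to blastocyst, 0 to 1 for superovulation and 0 elsewhere. From 4-cell to 8-cell 1 member was called without a mean-variance trend and with cyclic loess scaling (Taf4b), and with array weights and housekeeping centring (Nobox). From 8-cell to morula 0 were called with array weights, cyclic loess, centring on brighter rows, all rows or no stimulation term. Taf4b at that step was also lost in 13 of 16 omissions. From morula to blastocyst 1 was called with array weights. For superovulation 0 were called by the plain analysis of variance or over all rows. The cause was not tested.

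Sohlh1 was reversed by housekeeping centring at 2 spans, to -0.57 from 1-cell to early 2-cell and -0.68 from MII oocyte to late 2-cell. That scaling moved the median of all rows by up to -2.284 (MII oocyte to blastocyst), and with it the step into the early 2-cell stage had 24843 calls over all rows, against 6588, and superovulation 1026, against 104. Omitting 1 array lowered the rows called for superovulation to as few as 0, from late 2-cell to 4-cell to 3 of 633 and from 4-cell to 8-cell to 330 of 2133. The share of the Sohlh2 log2 fall reached at late 2-cell was 187.5% as deposited, since the signal rose again later, and 165.4% with cyclic loess, while those of Nobox, Lhx8 and Figla moved by less than their SD. Of 18 genes named as most alike, 4 were shared with Spearman's rho and 4 with stage means. A replicate block could not be fitted because each group has 1 array, and the stage term of the fit already pairs the 2 backgrounds. The exact sign-flip test, on the same 8 within-stage differences, gave 1 member (Nobox) an unadjusted p under 0.05. Signals near the level of silent genes limit Figla and Sohlh1, the 4-cell to morula values of Sohlh2, and the blastocyst values of Nobox and Lhx8.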
